A study of Neurospora crassa with 94 samples.

Results

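Neurospora crassa is a filamentous fungus, and the libraries described here came from mycelium kept in constant light. They compare wild type (WT) with a strain whose genotype is labelled acf, both sequenced in library series 111, a number that begins the labels of those libraries. Of 94 samples in the study, 3 were labelled acf and 3 WT in series 111, chosen by their labels. The same series held 3 libraries of iaf-1 and 3 of iaf-2, and library series 112 held another 3 libraries labelled acf and 3 of WT, which were used for comparison. Series 112 also held 3 libraries labelled set-7 and 3 of a triple mutant labelled acf, iaf-1 and iaf-2. All were labelled as WT or by the deleted genes and were grown alike under standard conditions, and no other agent or allele is named. The sample descriptions of the libraries labelled acf of series 111 also carry the words "1" and "pass0", and those of series 112 carry the locus NCU00164, and no label says whether the series share an isolate.

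ISWI remodelers are protein machines that use ATP to slide and space nucleosomes. Their ATPase, ISW, works with accessory subunits, and ACF is the partner related to ACF1 of animals. IAF-1 and IAF-2 are accessory factors of the same ATPase. In Neurospora, facultative heterochromatin is marked by methylation of lysine 27 of histone H3, laid down by the Polycomb complex PRC2, and genes within it are mostly silent in mycelium. The question put by the libraries is which genes change their expression when the ACF subunit is removed.

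Library totals in series 111 lay between 5332503 and 9021398 counted reads. In each group 1 pair of libraries was almost the same: WT replicates 1 and 3 had a chi-square per degree of freedom of 1.93 over genes, and acf replicates 1 and 2 had 1.80, where counting noise alone gives about 1. The remaining library stood apart, since 831 genes spanned at least 2-fold over the WT libraries and WT replicate 2 was the odd one for 800 of them, while acf replicate 3 was the odd one for 265 of 305 such genes. Values are therefore given by library, and calls are also given from a fit in which each near-identical pair was summed. No label says that replicates were separate cultures, so the p-values measure the spread between libraries only, which may be technical. Levels are normalized CPM, the usual counts-per-depth unit with library totals scaled by TMM, and a gene was called at an adjusted p under 0.05 in edgeR's quasi-likelihood test with Benjamini-Hochberg adjustment over all genes tested.

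The acf gene itself (crf4-2, NCU00164, chromosome III) went against its label. Its level was 39.3, 40.5 and 41.0 CPM in the WT libraries and 215, 221 and 212 CPM in the libraries labelled acf. The groups did not overlap, and the gene rose 5.36-fold (log2 fold change 2.42 ± 0.13 SE, edgeR adjusted p = 4.93e-08, and 0.000163 with the near-identical pairs summed). It also rose in the libraries labelled acf of series 112, by 1.34 on the log2 scale (edgeR adjusted p = 3.64e-06). Which piece of the gene was deleted is unstated in the labels, and reads from a remaining stretch cannot be told apart from reads of a whole gene. The strain is therefore named by its label, in both series; "acf" against WT or beside a series number stands for the libraries so labelled.

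The other ISWI genes were divided. The isw gene (crf4-1), which encodes the ATPase, had 137, 151 and 150 CPM in WT and 153, 139 and 138 CPM in the libraries labelled acf, and its groups overlapped (log2 fold change -0.03 ± 0.09 SE, edgeR adjusted p = 0.804). Its sign turned with the scaling, to 0.02 with median-ratio scaling, and with library totals it was called lower (-0.33, edgeR adjusted p = 0.0106). The iaf-1 gene (NCU00412) had 49.0, 40.5 and 49.2 CPM in WT and 12.0, 11.4 and 11.4 CPM in the libraries labelled acf. That is a 3.98-fold fall (edgeR adjusted p = 4.61e-07). The iaf-2 gene (NCU09388) fell by 0.83 on the log2 scale, from 50.8, 45.8 and 47.3 CPM to 29.8, 25.9 and 25.6 CPM (edgeR adjusted p = 0.000703). In series 112 neither iaf gene was called (edgeR adjusted p = 0.0794 for NCU00412 and 0.696 for NCU09388). NCU00412 was still 1.62-fold lower there without overlap, at 20.9, 22.0 and 21.3 CPM in WT and 13.3, 11.8 and 14.5 CPM in acf. The groups of NCU09388 overlapped there. The fall of NCU00412 was larger in series 111 than in series 112 by a test of that difference (edgeR adjusted p = 0.000276), and so was that of NCU09388 (0.0213). The iaf-1 libraries had no read of NCU00412 and the iaf-2 libraries averaged 0.0782 CPM of NCU09388.

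**Figure D1:**
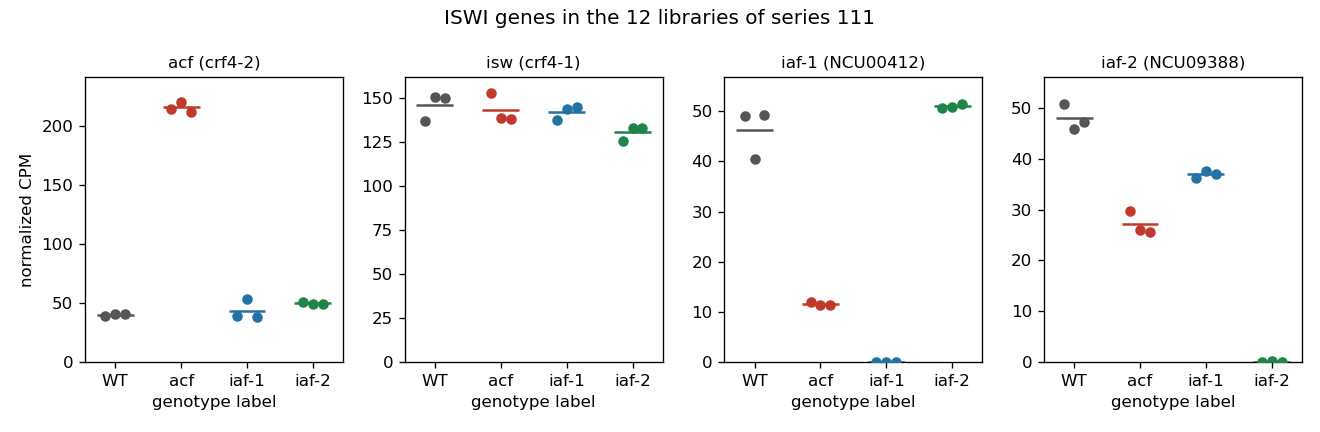
Normalized CPM of the 4 ISWI genes in each library of series 111, by genotype label; points are libraries and bars are group means (n = 3). The acf gene stands between 212 and 221 CPM in the libraries labelled acf, above every other library, while iaf-1 and iaf-2 are lower there than in WT.

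The 20 genes next to acf on chromosome III, 10 on each side in the gene order of the RefSeq table, included 18 that were tested. Of these, 7 were called higher and 3 lower in the libraries labelled acf, against 31.6% and 34.4% of all genes tested. NCU00167 and NCU00168, which lie side by side, rose 3.07-fold and 2.71-fold. NCU00167 went from 48.5, 32.1 and 45.3 CPM to 135, 133 and 119 CPM. NCU00155 and NCU00161 rose 3.19-fold and 3.14-fold. NCU00173 fell 4.84-fold, NCU00154 1.75-fold and NCU00170 1.42-fold. The rises of NCU00158, NCU00162 and NCU00171, of 1.32-fold to 1.56-fold, were not called with the near-identical pairs summed. In series 112 none of these 10 genes was called higher, and NCU00161 and NCU00170 were called lower (log2 fold changes -0.63 and -0.37, edgeR adjusted p = 0.00551 and 0.0219). Over all the neighbours, 2 were called higher in series 112 (NCU00166 and nuo6.6) and 2 lower, against 15.2% and 12% of all genes tested there.

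Many genes differed between the libraries labelled acf and WT in series 111. Of 7974 genes tested, 5265 were called, or 66%, with 2518 higher (31.6%) and 2747 lower (34.4%). At 2-fold or more, 1493 genes were higher (18.7%) and 1128 lower (14.1%). With the near-identical pairs summed, 4105 of 8120 genes were called (50.6%), 2079 higher (25.6%) and 2026 lower (25%). With only WT and the libraries labelled acf in that fit, 2958 genes were called, 1694 higher and 1264 lower. Both fits called 2040 genes higher (25.6%) and 2017 lower (25.3%). Genes called in both fits and changed at least 2-fold numbered 1462 higher (18.3%) and 1073 lower (13.5%). The median log2 fold change over all genes tested was -0.09 after TMM scaling, -0.04 with median-ratio scaling and -0.39 with library totals alone. Library totals left 1877 genes higher and 3790 lower, so that 33.1% of calls were higher against 47.8% after TMM scaling.

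The largest rises were of genes that WT mycelium hardly used. The 12 genes with the highest fold change (called in both fits, at least 5 CPM on average in the libraries labelled acf) had at most 0.867 CPM in any WT library and at least 4.08 CPM in every library labelled acf. NCU08222 on chromosome III had no read in WT and 10.4, 9.19 and 12.9 CPM in the libraries labelled acf, at least 81.7-fold higher over a floor of 3 reads summed across the WT libraries. NCU04710 (at least 80.0-fold), NCU04703 (at least 72.0-fold), NCU12045 (at least 55.6-fold) and NCU07089 (at least 42.1-fold) likewise had no WT read. NCU09605 had 1 read in WT and 24.2, 25.8 and 24.8 CPM in the libraries labelled acf, a ratio of 566 (95% counting interval 101 to 22400.1). The most abundant of the 12 was NCU09604, with 0.699, 0.867 and 0.559 CPM in WT and 70.2, 71.0 and 83.7 CPM in the libraries labelled acf (log2 fold change 6.70 ± 0.24 SE, edgeR adjusted p = 4.59e-09). NCU08796 on chromosome III and NCU05042 on chromosome VI averaged 20.7 and 24.1 CPM against 0.163 and 0.211 CPM in WT.

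Several of these genes are neighbours. On chromosome VI, NCU07086, NCU07087, NCU07089, NCU07090 and NCU07091 are the 57th to 62nd genes from one end with a single gene between them. NCU07091 went from 0.233, 0 and 0 CPM to 25.9, 21.1 and 27.6 CPM, and NCU07087 from 0.233, 0 and 0 CPM to 16.2, 14.6 and 13.2 CPM. NCU07088, the gene in their midst, did not pass the test, with 2.80, 11.0 and 3.496 CPM in WT and 5.42, 4.67 and 6.20 CPM in the libraries labelled acf. On chromosome II, NCU09604 and NCU09605 are adjacent, and NCU09603, which lies 26 genes from the end, had 0.350, 0.144 and 0.140 CPM in WT and 8.12, 6.48 and 7.84 CPM in the libraries labelled acf. The last 2 genes of chromosome II, NCU09634 and NCU09633, chosen after their values were seen, rose from under 1 CPM to between 18.8 and 24.0 CPM. NCU08863 and NCU08864 on chromosome V, also adjacent and also picked from their values, reached between 14.5 and 24.8 CPM.

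A wider set shows how common this was. Of the 10397 genes of the table, 2561 averaged under 1 CPM in WT of series 111, and 39 of these stood at 5 CPM or more in every library labelled acf. These 39 were chosen by their values in series 111, so their levels there are a description. Over them the median of the gene means was 0.236 CPM in WT, 10.8 CPM in the libraries labelled acf, 0.277 CPM in iaf-1 and 0.335 CPM in iaf-2, and none reached 5 CPM in every iaf-1 or every iaf-2 library. Of the 39, 13 (33.3%) were among the outermost 50 genes of a chromosome end, a zone that holds 6.75% of the placed genes of the table. The share of genes under 1 CPM in WT that lie in this zone was not counted, so the 6.75% is not a like comparison. Of the 144 genes under 1 CPM in WT and called higher at least 2-fold in both fits, 18.1% lay in the zone. Over all tested genes of the zone 33.9% were called higher and 35.3% lower, near the 31.6% and 34.4% of all genes tested. At 2-fold or more these were 23.7% and 17.3%, against 18.7% and 14.1%. Among tested genes the median WT level was 25.6 CPM in the zone and 44.0 CPM elsewhere on the chromosomes. Beside NCU09604, the highest were NCU08756 (25.0 CPM) and NCU09605 (24.9 CPM), and among those with symbols were the endoglucanase gene gh5-1, which cuts cellulose chains, and the protein kinase gene stk-36.

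Series 112, whose libraries had no part in that choice, gave the same direction for the set. In 38 of the 39 genes every library labelled acf of series 112 lay above every WT library of that series, against 21% of all genes of the table. The 21% covers genes of every level. The share among all genes under 1 CPM in WT was not counted, so this is not a like comparison. The median of the gene means was 0.223 CPM in WT and 12.0 CPM in the libraries labelled acf of series 112, and 30 genes reached 5 CPM in each of the latter against 3 in each WT library. In the libraries labelled set-7 of that series, set-7 being the gene for the PRC2 methyltransferase, the median was 1.26 CPM and 10 of the 39 reached 5 CPM in each library. In the triple mutant libraries it was 18.6 CPM, and 35 reached 5 CPM. NCU05043 and NCU16488 were the pair of genes too low in series 112 to be tested there, at 0.197 and 0.531 CPM in the libraries labelled acf. The change differed between the series for 16 of the 39 (41%, against 47.5% of all genes tested for a difference). The 2 shares are not comparable, since the libraries of series 111 chose the 39. The test is also weak where WT has almost no reads. NCU05043, at 17.0 CPM in acf of series 111, was not called (SE 10.7, edgeR adjusted p = 0.884). Among the 16 was NCU09640, at 0.172 CPM in WT of series 111 but 16.4 CPM in WT of series 112.

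**Figure D2:**
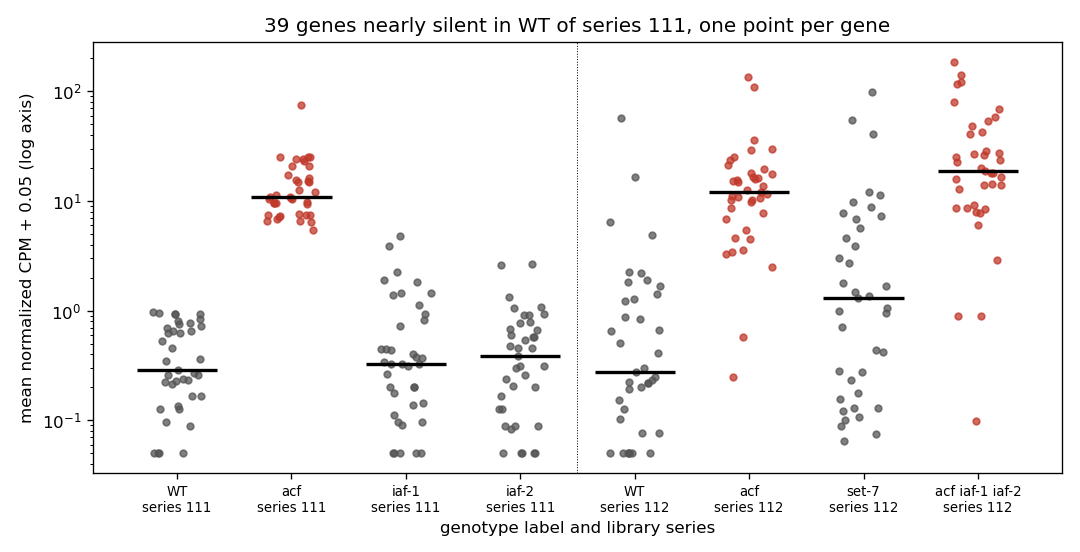
Mean normalized CPM (plus 0.05, log axis) of the 39 genes under 1 CPM in WT and at 5 CPM or more in each library labelled acf of series 111, in every group of series 111 and 112; 1 point per gene, black bars are medians and red marks genotypes that include acf. The median is 10.8 CPM in acf of series 111, 12.0 CPM in acf of series 112 and below 1.3 CPM in WT, iaf-1, iaf-2 and set-7.

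Genes that rose in series 111 were grouped by their level in WT. Among genes called higher at least 2-fold in both fits, 84.6% of 136 tested genes under 1 CPM in WT were also called higher in series 112 (15.2% of all genes tested). The share was 45.3% of 300 genes between 1 and 10 CPM, 13.1% of 704 genes between 10 and 100 CPM and 8.36% of 311 genes at 100 CPM or more. In the last of these classes 26% were called lower in series 112, against 12% of all genes. The change differed between series for 98.4%, against 47.5% of all genes tested for a difference. That test reuses the libraries of series 111 that chose these genes, so its high share was largely set by the choice. A gene silent in both WT groups passes the filter on low counts only where a mutant of its series is high, so the first share was partly set by the filter and is not comparable with the others.

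**Figure D3:**
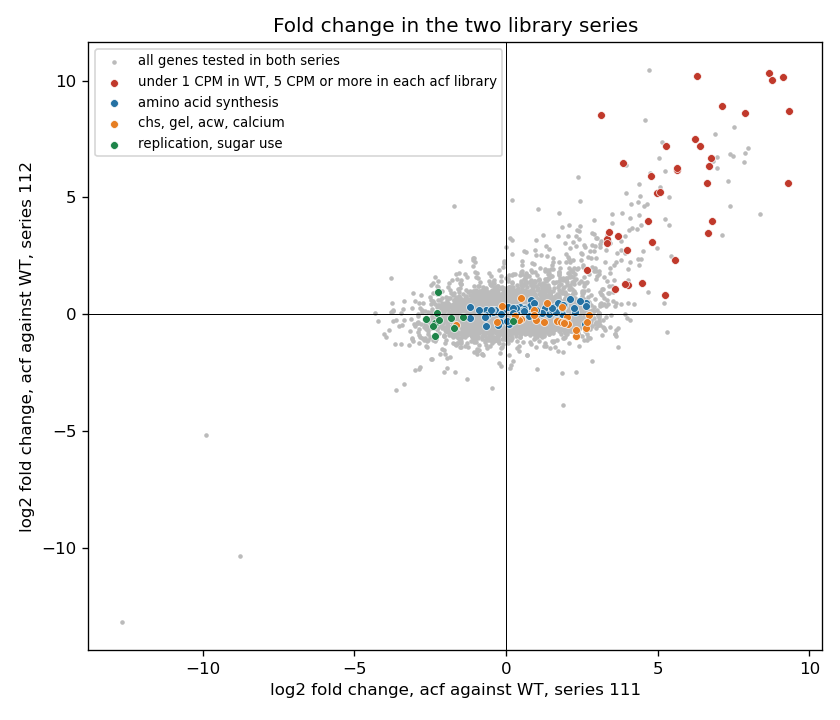
Log2 fold change of acf against WT in series 111 (x axis) and series 112 (y axis), 1 point per gene tested in both. The 37 tested genes of the near-silent set (red) lie above 0 on both axes, while amino acid synthesis (blue), cell wall and calcium genes (orange) and replication and sugar genes (green) spread along the x axis.

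Over the whole table fewer calls were shared. In series 112 itself 2381 of 8747 genes were called (27.2%). Of 2506 genes called higher in series 111 and tested in both, 503 (20.1%) were called higher and 414 lower in series 112. Of 2732 genes called lower, 330 (12.1%) were called lower and 238 higher there. Over 7941 genes the fold changes had a Pearson r of 0.45 and a Spearman rho of 0.09; the series share no library, and genes are not independent of each other. A test of the difference between the effects called 3920 of 8252 genes (47.5%).

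The deepest losses held genes that were absent from the libraries labelled acf. NCU09968 on chromosome VI had 128, 86.5 and 116 CPM in WT and no read in the libraries labelled acf, at least 667-fold lower when 3 reads are taken as the most that could have been missed. Its neighbour NCU09969 went from 4.31, 10.4 and 7.83 CPM to no read. Both were also at no read in the libraries labelled acf of series 112 and at 0.103 CPM or less in iaf-1, yet NCU09968 stood at 55.1 CPM in iaf-2. The gene matA-1, which determines mating type A, had 17.6, 13.3 and 17.5 CPM in WT and no read in the libraries labelled acf (at least 97.1-fold lower). It had no read in iaf-1 and 1 read in iaf-2, so its loss was shared by the 3 mutants of the series. In series 112 matA-1 had 7, 14 and 30 reads in WT and 0, 2 and 0 in the libraries labelled acf. Mating type and deletion cannot be told apart for matA-1. No label gives the mating type or background of the strains. Strain differences and deletion can therefore not be told apart for the other genes either, in both series. NCU14009, adjacent to matA-1, fell 16.4-fold, from 80.8, 114 and 81.3 CPM to 6.38, 5.57 and 4.90 CPM. It averaged 11.4 CPM in iaf-1 and 8.95 CPM in iaf-2. In series 112 NCU14009 was low in WT as well, at 6.14, 5.23 and 5.12 CPM, against 3.26, 3.28 and 2.65 CPM in acf.

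The other 8 of the 12 lowest genes kept some reads. NCU02238 fell from 15.5, 16.2 and 14.7 CPM to 1.16, 0.603 and 0 CPM. NCU05897 fell 13.7-fold from 605, 593 and 606 CPM to 55.7, 53.0 and 23.0 CPM, and NCU09533 fell 18.8-fold. NCU02887 fell 14.6-fold, NCU02128 15.6-fold, NCU09785 20.1-fold and NCU14073 13.6-fold. NCU07607 fell 13.9-fold in series 111, from 62.5, 117 and 62.8 CPM to 3.87, 6.18 and 7.18 CPM, but rose by 1.55 on the log2 scale in series 112 (edgeR adjusted p = 0.000246). Of the 12 lowest genes, 6 of the 11 tested in series 112 were called lower there and 1 higher. Over all genes tested there, 12% were called lower and 15.2% higher.

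Genes of chromatin repression were called lower or not called. In the list of Polycomb and ASH1 genes 4 of 6 were called lower and none higher in both fits (median log2 fold change -0.996, against -0.09 over all genes, of which 34.4% were called lower). The gene set-3, which encodes the H3 lysine 36 methyltransferase ASH1, went from 104, 78.4 and 107 CPM to 53.0, 43.1 and 37.7 CPM. NCU05460, the PRC2 subunit SUZ12, fell by 1.07 on the log2 scale, NCU05300, the subunit EED, by 1.39, and cac-3, a subunit shared with a chromatin assembly factor, by 0.92. The catalytic subunit gene set-7 had 10.1, 2.89 and 9.51 CPM in WT and 6.00, 4.82 and 6.53 CPM in the libraries labelled acf, which overlap (edgeR adjusted p = 0.327). In series 112, 2 of these 6 genes were called lower, against 12% of all genes tested there.

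Of 6 genes of heterochromatin and DNA methylation, 5 were called lower and none higher, against 34.4% and 31.6% of all genes. With the near-identical pairs summed 3 of the 5 held, and 1 gene was called lower when only WT and the libraries labelled acf were in that fit. The gene hpo, for heterochromatin protein HP1, went from 126, 141 and 134 CPM to 69.3, 69.0 and 57.3 CPM (log2 fold change -1.03 ± 0.12 SE, edgeR adjusted p = 9.61e-06). The H3 lysine 9 methyltransferase gene dim-5 fell by 0.76 and the cullin gene cul-4 by 0.52 on the log2 scale; dim-2, for the DNA methyltransferase, fell by 0.87 but was not called with pairs summed (adjusted p = 0.0533). Among 8 histone genes 3 were lower and none higher, the first near the 34.4% of all genes, and 6 were lower with library totals. The centromeric histone gene hH3v fell 2.73-fold, from 88.1, 89.7 and 86.7 CPM to 35.8, 36.5 and 24.8 CPM, while hH2Az and hH2A fell 1.40-fold each, hH2A without a call when pairs were summed (adjusted p = 0.0522). Of 12 genes with crf symbols, most of them remodeler ATPases, 2 were higher, counting acf, and 4 lower, the latter near the share of all genes (7 with library totals), with crf7-1 down 3.32-fold and crf10-1 down 2.61-fold.

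Genes of amino acid synthesis were called higher more often than lower in series 111. Of 59, 34 were called higher and 10 lower, where 31.6% and 34.4% of all genes were. Both fits called 30 and 7, with a median log2 fold change of 0.60 (0.29 with library totals). The gene arg-12, for ornithine carbamoyltransferase, went from 74.0, 81.6 and 73.1 CPM to 373, 397 and 481 CPM (log2 fold change 2.45 ± 0.14 SE, edgeR adjusted p = 7.11e-08). The level of arg-12 lay between 162 and 214 CPM in iaf-1 and between 93.2 and 108 CPM in iaf-2, also above every WT library of series 111. Arg-10, arg-5 and arg-13, for an arginine synthesis enzyme in each of the first pair and a mitochondrial carrier, rose 6.22-fold, 6.19-fold and 6.02-fold. Arg-5 had 41.7 to 61.6 CPM in iaf-1 and 22.5 to 31.7 CPM in iaf-2, against 17.0 to 19.0 CPM in WT. Genes of other families rose as well: lys-5 (lysine) by 1.87, trp-3 (tryptophan) by 1.85, ilv-6 (branched-chain) by 2.25 and his-3 (histidine) by 1.43 on the log2 scale. Those 4 were picked after their values were seen. The proline gene pro-1 was the lowest, down by 1.20. In series 112, 6 of the 59 were called higher and 2 lower, against 15.2% and 12% of all genes tested there. For 34 of 59 the change differed between the series, against 47.5% of all genes tested for a difference.

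Other families stood out once the values had been seen, and they are given as counts, without a test of the family. The chitin synthases chs-1, chs-3, chs-4 and chs-5, which build cell wall chitin, were called higher and chs-6 was not. Over all genes 31.6% were called higher and 34.4% lower, and these lists were made because their members had moved. The gene chs-5 went from 190, 130 and 187 CPM to 886, 891 and 1359 CPM, and chs-1 from 394, 343 and 397 CPM to 1362, 1324 and 1566 CPM. The level of chs-5 lay between 255 and 359 CPM in iaf-1, above every WT library, and between 180 and 241 CPM in iaf-2, overlapping WT. All 11 genes of anchored cell wall proteins (acw) were called higher, 10 of them in both fits and 7 with library totals. Of 4 glucanosyltransferase genes, which cross-link wall glucan, gel-4 and gel-3 rose by 2.73 and 1.81 on the log2 scale and gel-5 fell by 1.66. Gel-4 had 127 to 148 CPM in iaf-1, above every WT library, and 94.7 to 102 CPM in iaf-2, overlapping WT. In series 112, 3 of the 5 chitin synthases were called lower and none higher, against 12% and 15.2% of all genes tested there.

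Several signalling genes rose. Of 5 calcium pump and exchanger genes 4 rose: cax, a vacuolar calcium exchanger, had 96.3, 80.2 and 93.4 CPM in WT and 445, 461 and 444 CPM in the libraries labelled acf, and nca-2, nca-3 and pmr-1, calcium pumps, rose by 2.32, 2.68 and 1.68 on the log2 scale. The level of cax in iaf-1 and iaf-2 lay between 137 and 228 CPM, also above every WT library of series 111. In series 112, cax fell by 0.95 and nca-2 by 0.66. Of 12 genes of osmotic and MAP kinase pathways 7 were called higher and 2 lower, and 5 and 0 with the near-identical pairs summed. The histidine kinase gene os-1 and the kinase genes os-4 and mek-1 rose by 1.61, 2.02 and 1.73. Of 47 tested genes with stk kinase symbols 26 were higher and 8 lower (20 and 12 with library totals), against 31.6% and 34.4% of all genes. In series 112, 3 were higher and 14 lower, against 15.2% and 12% of all genes.

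**Figure D4:**
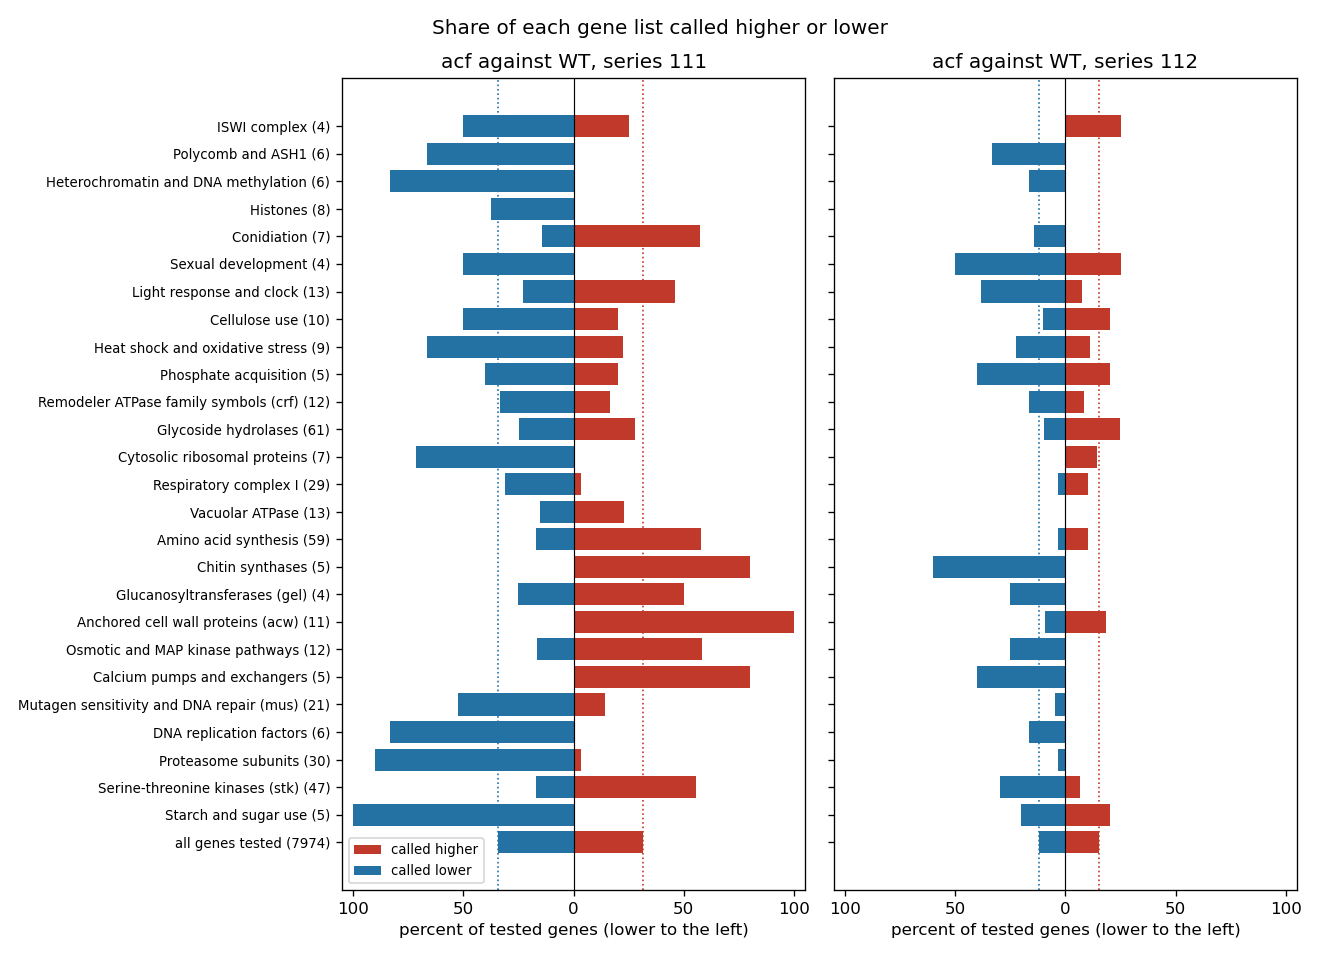
Percent of the tested genes of each list called higher (red, to the right) or lower (blue, to the left) in acf against WT of series 111 and series 112; dotted lines mark the share over all genes tested and numbers in brackets are genes tested in series 111. Amino acid synthesis, chitin synthase, acw and calcium lists extend mostly to the right in series 111, and proteasome, replication and sugar use lists extend to the left.

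Lists of replication, repair and proteasome genes, also made after the values were seen, held more genes called lower than higher in series 111; over all genes 34.4% were called lower. Of 6 replication genes 5 fell: pcn, for the sliding clamp PCNA, went from 170, 188 and 180 CPM to 40.4, 40.2 and 29.9 CPM (log2 fold change -2.28 ± 0.14 SE, edgeR adjusted p = 9.95e-08). The level of pcn in iaf-1 and iaf-2 lay between 89.4 and 109 CPM, also below every WT library of series 111. The ribonucleotide reductase gene un-24 fell by 2.34, the DNA polymerase gene pold-1 by 1.72 and the single-strand binding genes rpa-1 and rpa-2 by 1.81 and 1.41. Un-24 had 210 to 233 CPM in iaf-1 and iaf-2, also below every WT library of series 111 (251 to 397 CPM). Of 21 mus genes, named for mutagen sensitivity, 11 fell and 3 rose, with 1 of the rises held when pairs were summed. With only WT and the libraries labelled acf in that fit, 5 were called lower and 1 higher. Of 30 genes with proteasome symbols 27 were lower, with a median log2 fold change of -0.74 (-1.05 with library totals). With the near-identical pairs summed 24 were lower, and 16 with only WT and the libraries labelled acf in that fit. The 1 gene called higher was rpn-4, which went from 180, 83.5 and 183 CPM to 2242, 2231 and 2662 CPM, 15.9-fold higher (edgeR adjusted p = 2.98e-07). The level of rpn-4 in iaf-1 and iaf-2 lay between 89.8 and 221 CPM and overlapped WT. In Saccharomyces cerevisiae the protein of that name is a transcription factor of proteasome genes. In series 112, 1 of the 30 was called lower and none higher, against 12% and 15.2% of all genes tested there. There rpn-4 had a log2 fold change of -0.16 (edgeR adjusted p = 0.524).

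A list of 5 genes of starch and sugar use was made because its members were seen to be lower, so its count supports nothing. The invertase gene inv, whose product splits sucrose, went from 4467, 2892 and 4249 CPM to 876, 960 and 630 CPM. The level of inv in iaf-1 and iaf-2 lay between 853 and 2124 CPM, also below every WT library of series 111. The glucoamylase genes gla-1 and gla-2 fell by 2.32 and 2.64 and fbp-1, for the gluconeogenic enzyme fructose bisphosphatase, by 2.21 on the log2 scale. Gla-2 had 72.5 to 134 CPM in iaf-1 and iaf-2, and each of them overlapped WT. Of 3 sugar transporter genes tested, hgt-1 and cdt-1 fell 5.24-fold and 4.11-fold. WT replicate 2 was low for both, at 622 CPM of hgt-1 against 1979 and 2041 CPM in the other replicates. Neither gene averaged above 287 CPM in iaf-1 or 493 CPM in iaf-2. The hgt-1 means of both mutants thus also lay below every WT library of series 111. In series 112, inv rose by 0.97 on the log2 scale (edgeR adjusted p = 0.000702). It did so from a far lower WT level, of 149, 207 and 180 CPM in WT of series 112, so the 2 changes began from unlike levels. In the list of cellulose use 2 genes were higher and 5 lower of 10 tested (7 lower with library totals), against 31.6% and 34.4% of all genes. The regulator gene xlr-1 fell 8.04-fold, from 125, 77.7 and 128 CPM to 13.7, 19.4 and 7.84 CPM. Its level lay between 34.9 and 53.3 CPM in iaf-1, below every WT library of series 111. In iaf-2 it lay between 74.6 and 82.5 CPM, overlapping WT. In series 112 xlr-1 had only 5.93 to 6.68 CPM in WT and 4.36 to 4.77 CPM in the libraries labelled acf. The cellobiohydrolase gene cbh-1 fell 3.11-fold in series 111. The regulator gene clr-2 rose 5.63-fold and gh5-1 rose 25.4-fold, from 0.699, 0.144 and 0.979 CPM to 18.2, 16.4 and 13.7 CPM. Of these, gh5-1 was called higher in series 112 too (log2 fold change 3.99, edgeR adjusted p = 1.41e-08).

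**Figure D5:**
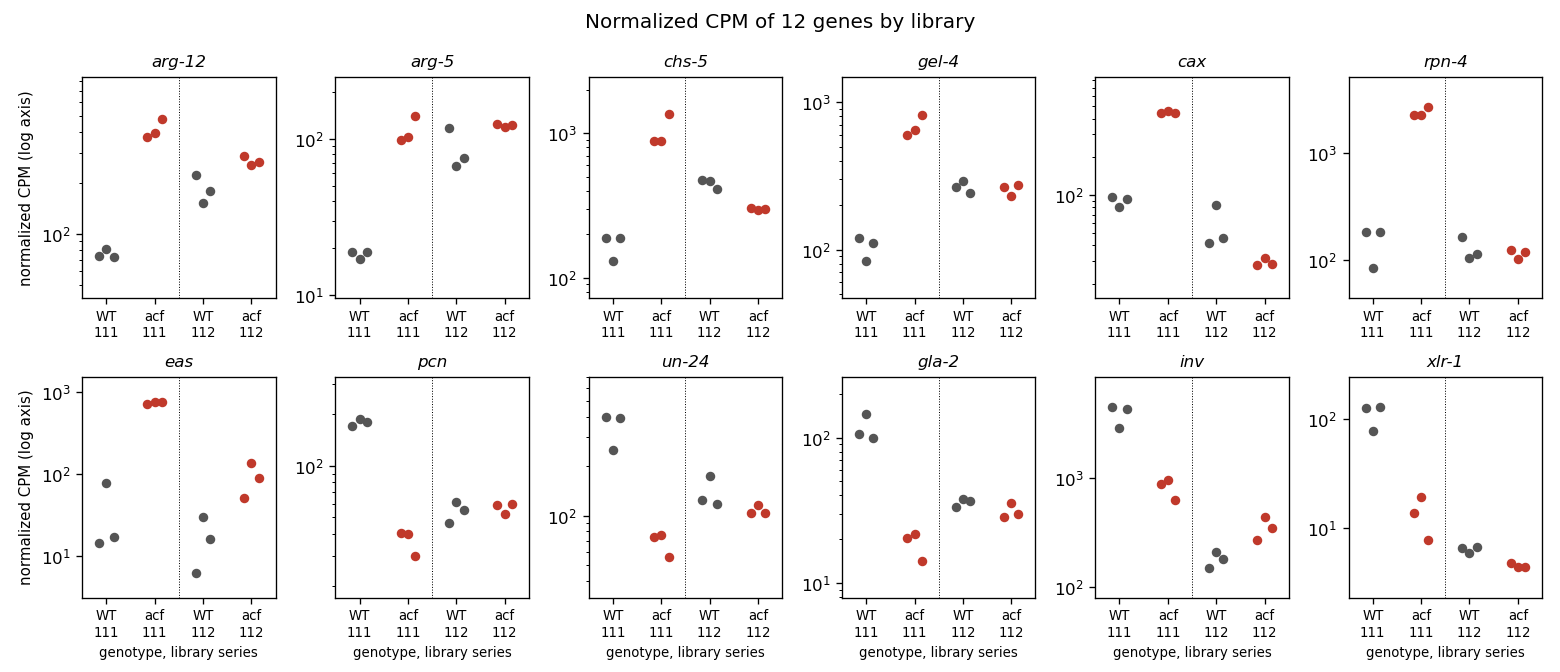
Normalized CPM (log axes that differ by panel) of 12 named genes in each WT (grey) and acf (red) library of series 111 and series 112, scaled within each series. In series 111 the groups are apart in every panel, with arg-12 at 73.1 to 81.6 CPM in WT and 373 to 481 CPM in the libraries labelled acf. The 12 genes were chosen with their values in series 111 known, so that separation was set by the choice.

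Conidiation and light genes changed in both directions. Of 7 conidiation genes tested 4 rose and 1 fell, where 31.6% and 34.4% of all genes did. The hydrophobin gene eas, whose product coats conidia, had 14.2, 77.6 and 16.8 CPM in WT and 713, 753 and 753 CPM in the libraries labelled acf (log2 fold change 4.36 ± 0.77 SE, edgeR adjusted p = 0.000312). Eas had 0.848 to 10.3 CPM in iaf-1, below every WT library, and 3.07 to 16.0 CPM in iaf-2, overlapping WT. The transcription factor genes csp-1 and csp-2 rose 3.40-fold and 3.26-fold and con-8 rose 5.92-fold, whereas con-10 fell by 1.47 on the log2 scale, and the conidiation regulator gene fl had overlapping groups (adjusted p = 0.875). In the list of light and clock genes 6 were higher and 3 lower of 13, against 31.6% and 34.4% of all genes, and 5 and 6 with library totals, so its balance turned with the scaling. The clock gene frq rose by 1.43, the photoreceptor genes wc-1 and vvd by 1.29 and 1.67 and the carotenoid gene al-1 by 1.06, while the photolyase gene phr fell by 2.02 on the log2 scale and the helicase gene frh fell 2.21-fold. Frq and wc-1 fell in series 112, by 0.78 and 0.74 on the log2 scale, and phr fell there too, by 1.69.

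Stress genes mostly fell. Of 9 genes of heat shock and oxidative stress 6 were lower and 2 higher, against 34.4% and 31.6% of all genes: the catalase gene cat-2 went from 113, 132 and 111 CPM to between 30.04 and 40.8 CPM, the chaperone genes hsp98, hsp80 and hsp30 fell 2.17-fold, 2.03-fold and 1.93-fold, and cat-1 rose by 2.04 on the log2 scale. Among 5 phosphate genes the WT libraries disagreed. The transporter gene pho-4 had 460, 36.5 and 442 CPM in WT and 108, 125 and 75.9 CPM in the libraries labelled acf, and its call was lost with pairs summed (adjusted p = 0.219). The phosphatase gene pho-2 fell 7.37-fold and pho-3 rose 2.36-fold.

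The remaining lists were mixed, and over all genes 31.6% were called higher and 34.4% lower. Of 7 cytosolic ribosomal protein genes 5 were lower, each by under 1.5-fold, such as crp-15 at 731, 697 and 696 CPM in WT and 481, 514 and 482 CPM in the libraries labelled acf. With the near-identical pairs summed 4 were lower, and none was called with only WT and the libraries labelled acf in that fit. Of 29 genes of respiratory complex I, 9 were lower and 1 higher, and 26 and 0 with library totals. With the near-identical pairs summed 5 were lower and none higher, and none was called with only WT and the libraries labelled acf in that fit. The 13 vacuolar ATPase genes had 3 higher and 2 lower, none of which was called with pairs summed, and 0 and 9 with library totals. Of 61 glycoside hydrolase genes tested 17 were higher and 15 lower, both shares below those of all genes, and 14 and 24 with library totals; gh31-3 fell 8.47-fold, gh2-3 3.13-fold, and gh76-7 rose 3.73-fold. Of the 10 genes of sexual development 4 were tested. Beside matA-1, the regulator gene Asm-1 fell by 0.93 on the log2 scale, and in series 112 by 0.99. The heterokaryon incompatibility gene het-c rose 2.07-fold in series 111 and fell by 0.41 on the log2 scale in series 112.

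Set against iaf-1 in place of WT, the libraries labelled acf had 4718 genes called (59.2%), 2289 higher (28.7%) and 2429 lower (30.5%). With the near-identical pairs summed these were 1672 (20.6%) and 1465 (18%). The genes with the largest rise were NCU09605, NCU07091 and NCU08222, none with a read in iaf-1, and NCU00412, the gene deleted in iaf-1. The 4 lowest against iaf-1 were NCU06555, with 41.3 CPM in iaf-1 and 0.787 CPM in the libraries labelled acf, NCU03534 (17.7 and 0.447 CPM), the tyrosinase gene T (16.7 and 0.495 CPM) and NCU09620 (23.7 and 1.29 CPM). Against iaf-2 there were 5117 genes called (64.2%), with 2509 genes higher (31.5%) and 2608 lower (32.7%). NCU08222, NCU08796, NCU04710 and NCU04703 were the highest, and iaf-2 had no read of any of them. NCU09968, NCU02238, gh47-5 and NCU02887 were the lowest, with NCU02887 at 281 CPM in iaf-2 and 16.6 CPM in the libraries labelled acf. These comparisons share the libraries labelled acf with each other and with the one against WT, so each stands on its own values.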

How the data were processed

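RNA was made into stranded mRNA libraries, per the labels' protocols. Reads were trimmed, checked, aligned and counted with tools that the submitters' processing notes list: HISAT2 2.1.0, featureCounts (Subread 1.6.2), SAMtools 1.9, Trim Galore 0.4.4, FastQC and cutadapt 1.14. No source used here gives the genome build, annotation or strand setting, and overlapping genes and near-identical copies such as histone H4 are uncertain. Values deposited by the authors are raw counts of reads for each gene; a table of series 118 was not used, since it held no acf single mutant. Of 10397 gene identifiers 10363 matched the RefSeq table of assembly NC12, which gave symbols and order along chromosomes; 34 had no match.

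Counts were tested with edgeR 4.0.16 (limma 3.58.1, R 4.3.3): TMM scaling, filterByExpr, robust quasi-likelihood, with all 12 libraries of series 111 in 1 fit, the 12 of series 112 in another, and acf and WT of both for the difference between series. Pairs of libraries with a chi-square per degree of freedom under 3 (genes with at least 10 summed reads) were summed in the second fit. Floors of 3 reads and 95% intervals cover counting error only. Alternatives were median-ratio scaling, DESeq2 1.42.0, no filter, a replicate block, fewer groups, each library left out and, added after seeing the scaling factors, library totals. Counts were also simulated as independent libraries with the fitted spread. At each fold 100 genes above a minimum count were changed, as many raised as lowered. Over 7974 genes, 90% of 2-fold and 100% of 4-fold changes were recovered in the comparison with WT. For the difference between series, over 8252 genes, 48% and 98% were. The simulation held no near-identical pairs and far fewer changed genes than were called, so these rates do not carry over to the data. Named genes were the 4 ISWI genes, the 12 highest and 12 lowest genes called in both fits with at least 2-fold change, at least 5 CPM in the higher group and no overlap, up to 4 called members per list, called neighbours of acf, and 4 and 4 per further contrast. Members, lists and rules were chosen with earlier results of these data known; genes named outside the rule are said to be so or illustrate the families added after their values were seen.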

Additional observations from a re-analysis of the deposited data

Results flagged for a closer look

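The effect of the acf label differed between library series 111 and 112, by a test of the difference itself, for 3920 of 8252 genes. The genes with the largest positive differences in log2 fold change (series 111 minus series 112) were NCU04950 (6.16), NCU08052 (5.81), NCU00761 (5.20) and NCU11216 (5.16). NCU04950 rose from 1.98, 2.31 and 2.24 CPM in WT to 81.8, 73.2 and 104 CPM in the libraries labelled acf of series 111, and fell from a mean of 25.8 to 15.2 CPM in series 112. NCU00761 rose from 5.53 to 71.9 CPM in series 111 and fell from 14.8 to 5.49 CPM in series 112. NCU08052 averaged 242 CPM in WT of series 112 and under 1 CPM in WT of series 111. The most negative differences were of NCU14162 (-5.34), NCU07607 (-5.25), NCU08073 (-5.02) and NCU09785 (-4.30). NCU14162 and NCU08073 rose in both series, and neither had a read in WT of series 112, so that the size of their difference depends on the prior count of the fit. NCU09785 fell from 138, 43.5 and 143 CPM to 6.77, 6.48 and 2.94 CPM in series 111 and stood at 6.00 and 6.31 CPM in WT and in the libraries labelled acf of series 112. What sets the series apart was not tested.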

How the results depend on the processing

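Every count of called genes in the 4 contrasts stayed within 1.5 times its value under median-ratio scaling, DESeq2, no filter and a replicate block. Against iaf-1 the genes called lower numbered 1465 with near-identical pairs summed. Against WT they numbered 1264 with only WT and acf in the fit and pairs summed, and 1859 at 2-fold or more with library totals. Leaving out each library gave 2375 to 2753 genes higher and 2491 to 2797 lower than WT, 1408 to 1578 and 1011 to 1185 at 2-fold or more, 2042 to 2280 higher and 2081 to 2215 lower than iaf-1, 2352 to 2458 higher and 2244 to 2397 lower than iaf-2, and 1777 to 2328 positive and 1511 to 2042 negative differences between series. Replicate numbers did not pair the libraries (correlations of deviations 0.08, -0.05 and -0.08); with a replicate block 2472 genes were higher and 2614 lower than WT. The isw gene crf4-1, not called, had a log2 fold change of 0.0209 with median-ratio scaling, 0.0205 with DESeq2 and 0.00498 without WT replicate 3; over all libraries left out in turn it ran from -0.0761 to 0.00498. With pairs summed, 12 of the named genes lost their call, all changed less than 2-fold but pho-4. NCU14162 lost the call of its difference without WT replicate 1 of series 111 (-4.28, edgeR adjusted p = 0.0976). The cause of these shifts was not tested.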
